A study of Homo sapiens with 6 samples.

Results

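The U1 small nuclear RNA genes were examined for peaks of RNA bound by the HSP70 chaperones HSPA1A and HSPA8. The 6 genes are RNU1-1, RNU1-2, RNU1-3, RNU1-4 and the variants RNVU1-7 and RNVU1-18, named by symbol among 59716 genes placed on the chromosomes. Every deposited peak sharing at least 1 base with any of them was taken, which gave 48 of 9974 peaks. The data are FLASH-seq, in which ultraviolet light crosslinks RNA to a tagged protein and the RNA left after RNase I trimming is sequenced. The cells were HEK293 Flp-In T-Rex, an established human embryonic kidney line with a transgene switched on by tetracycline, here at 1 µg/ml for every bait. All baits carried the 3xFLAG-HBH tag and were made in addition to the cells' own proteins: GFP as control, the stress-inducible HSPA1A, or the constitutive HSPA8, with 2 biological replicates each. Of these 6 libraries, the 4 peak lists of HSPA1A and HSPA8 were used. GFP libraries were not analysed here, and the values below therefore stand without a control bait.

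U1 RNA is the RNA core of the U1 small nuclear ribonucleoprotein, which recognises the start of an intron at the first step of spliceosome assembly and also protects transcripts from early polyadenylation. From its 5′ end the RNA holds the stretch that pairs with the splice site, a series of stem-loops bound by the U1-specific proteins SNRNP70 and SNRPA, the binding site of the Sm protein ring, and a last stem-loop. U1 is made by RNA polymerase II from several near-identical gene copies, unlike U6, which is made by RNA polymerase III. RNVU1 genes are variants of the standard copies.

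All 6 genes carried 2 peaks in each of the 4 lists, so that the 24 pairs of gene and list all held the same number. Over the whole set of genes, the share with a peak was 3.04% and 2.00% for replicates 1 and 2 of HSPA1A, and 3.05% and 1.28% for those of HSPA8. Over the 154 genes annotated as snRNA it was 46.1%, 39.6%, 42.9% and 33.1% in the same order. A peak in all 4 lists was found at 0.872% of genes, and at 30.5% of those annotated as snRNA. All U1 peaks of a gene lay on the same strand, with 0 on the other. The strand was plus for RNU1-2 and RNU1-4 and minus for RNU1-1, RNU1-3, RNVU1-7 and RNVU1-18. Between the 4 lists and the 6 genes, 0 peaks lay within 1000 bases of a gene without touching it. The peaks were therefore limited to the annotated span of the RNA.

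All 6 genes are 164 bases long, are annotated as snRNA and lie on chromosome 1 of GRCh38. RNU1-1 runs from 16514122 to 16514285, RNU1-3 from 16666785 to 16666948, and RNU1-4 from 16740516 to 16740679. RNU1-2 runs from 16895980 to 16896143. These 4 standard copies thus lie close together on the short arm. RNVU1-18 runs from 143729407 to 143729570 and RNVU1-7 from 148038753 to 148038916. The gene table gives no strand, so positions along the RNA were counted from 1 at the 5′ end as set by the strand of the peaks.

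The pair of peaks divided the RNA at nearly the same place in each list. The first, called the 5′ peak here, started between positions 3 and 8 and ended between 101 and 104. The second, the 3′ peak, started between 104 and 108 and ended between 144 and 164. In RNU1-4 the 5′ peak ran from 7 to 103 and from 8 to 101 in HSPA1A replicates 1 and 2, and from 4 to 104 and from 8 to 101 in HSPA8 replicates 1 and 2. Its 3′ peak ran from 104 to 151 and from 108 to 147 with HSPA1A, and from 105 to 164 and from 104 to 147 with HSPA8. Only in HSPA8 replicate 1 did peaks reach the last base of the RNA, and they did so in 5 of the 6 genes.

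**Figure D1:**
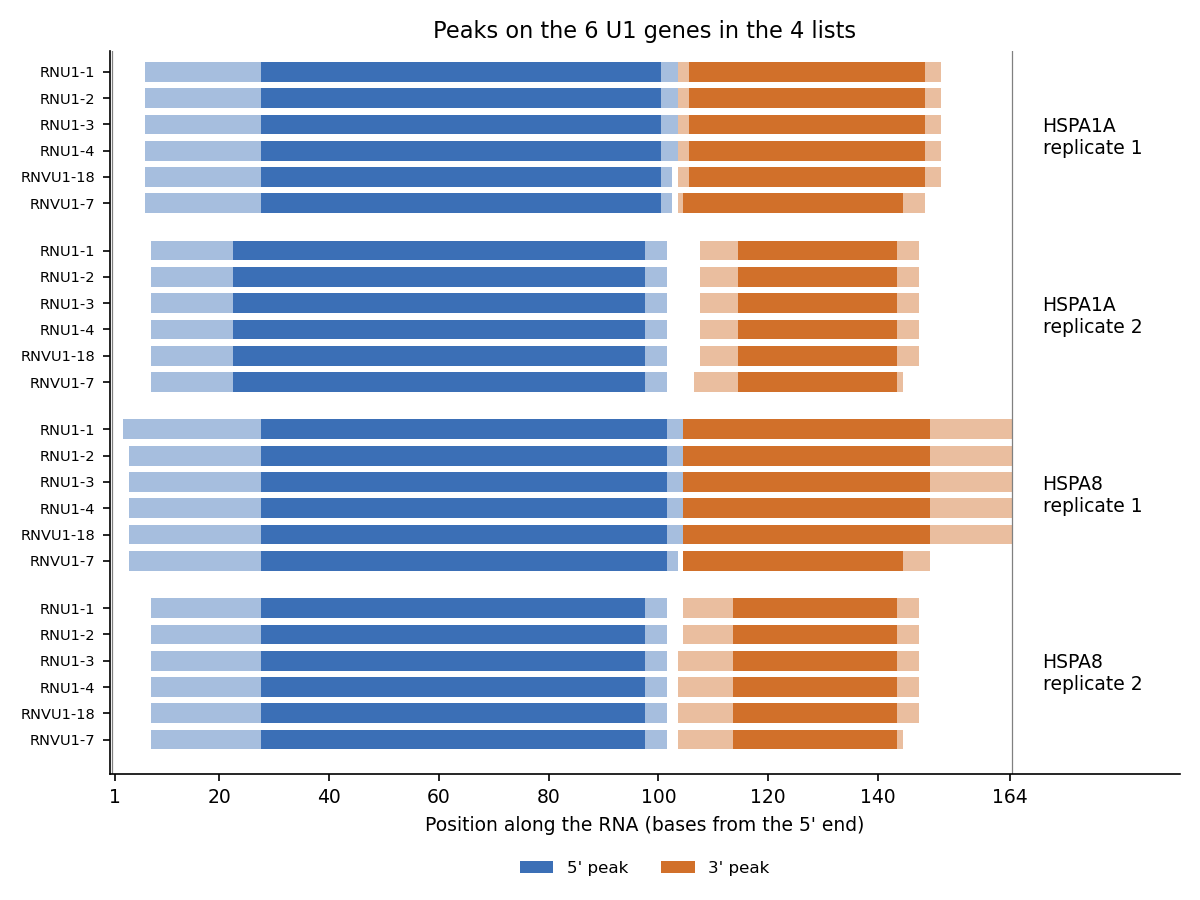
Peaks on the 6 U1 genes, 1 row per gene and list, by position along the RNA in bases from the 5′ end; blue bars are 5′ peaks, orange bars 3′ peaks, and darker parts the inner interval given in the last 2 columns of the deposited lists. Each gene has 2 peaks in each list, which meet or leave a short gap near position 104, and 3′ peaks reach position 164 only in HSPA8 replicate 1.

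The peaks touched or nearly touched in the lists numbered 1 and stood apart in those numbered 2. The gap between them was 0 to 1 bases in HSPA1A replicate 1 and in HSPA8 replicate 1. It was 5 to 6 bases in HSPA1A replicate 2 and 2 to 3 bases in HSPA8 replicate 2. Each deposited peak also has an inner interval, whose meaning and counting base the files do not state, so that its bounds may be off by 1. In the standard copies and RNVU1-18 the inner interval of the 3′ peak started at 106 and 105 in the lists numbered 1 and at 115 and 114 in those numbered 2. It ended at 148 and 149 in the former and at 143 in both of the latter. The 3′ peak was thus narrower in both replicates numbered 2, in its full and its inner extent. Peaks of the whole list had a median width of 48 and 44 bases with HSPA1A and of 57 and 51 bases with HSPA8, so they too were narrower in the lists numbered 2. The part of this in the U1 values was not tested.

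The 5′ peaks were wide for their lists and the 3′ peaks were not. The width of the 5′ peaks was 94 to 102 bases, wider than at least 80.9% of the peaks of each list. The 3′ peaks were 38 to 60 bases wide, wider than between 33.7% and 52.4% of the peaks of their list. If peaks up to 10 bases apart are merged, the pair becomes a single peak in every gene and list.

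Which of the peaks scored higher depended on the replicate number. The authors' score is a whole number per peak with no stated meaning, and serves here to describe and rank peaks inside 1 list. In RNU1-4 the 5′ peak scored 1965 and the 3′ peak 1188 in HSPA1A replicate 1. In HSPA1A replicate 2 the same peaks scored 978 and 1358. With HSPA8 they scored 1058 and 520 in replicate 1, and 655 and 781 in replicate 2. The 5′ peak was therefore the higher in both lists numbered 1 and the 3′ peak in both lists numbered 2. This held for all 6 genes in each list. Over the 6 genes the score of the 3′ peak was 0.482 to 0.605 times that of the 5′ peak in HSPA1A replicate 1 and 0.334 to 0.491 times in HSPA8 replicate 1. It was 1.28 to 1.39 times in HSPA1A replicate 2 and 1.11 to 1.19 times in HSPA8 replicate 2. The ranges of the lists numbered 1 and 2 did not overlap. They run mostly over near-identical copies, which are not separate observations, so this measures no spread within a list. The order of the 2 peaks was seen in the data and was not tested. The labels mark replicates by a purine or pyrimidine tag in the adapter and give no day or batch that same-numbered libraries share.

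**Figure D2:**
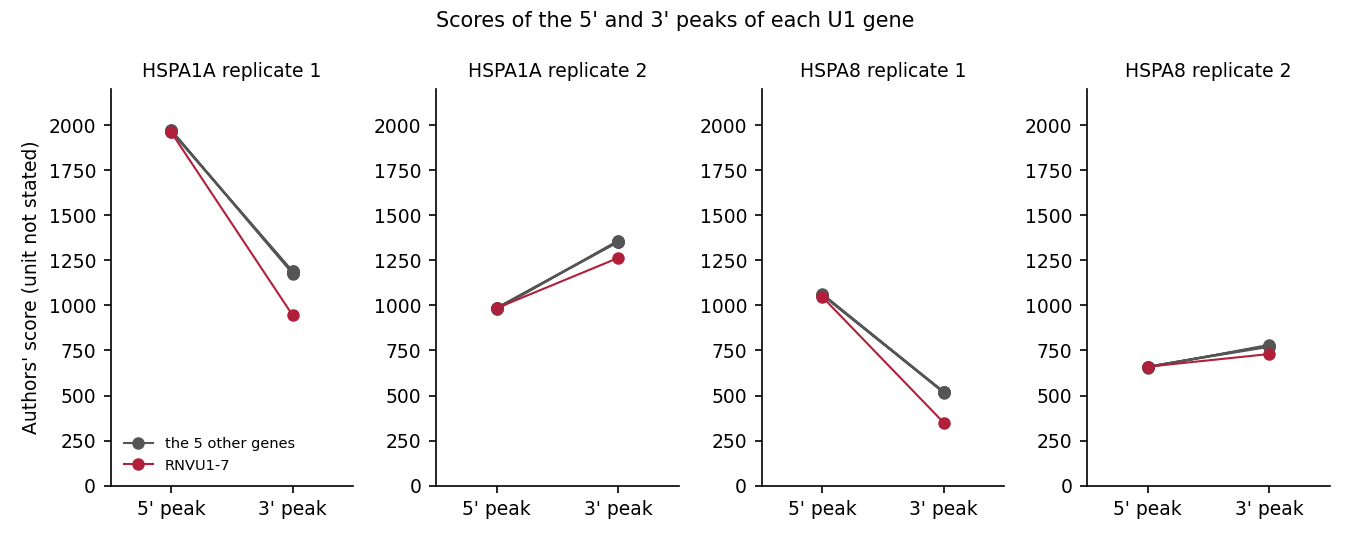
The authors' score, whose unit is not stated, of the 5′ and the 3′ peak of each U1 gene, 1 panel per list, with RNVU1-7 in red and the 5 other genes in grey. Lines fall from the 5′ to the 3′ peak in both replicates numbered 1 and rise in both numbered 2, and RNVU1-7 lies below the others at the 3′ peak in all 4 panels.

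Among the genes, 5 could not be told apart. RNU1-1, RNU1-2, RNU1-3, RNU1-4 and RNVU1-18 had 5′ peak scores of 1964 to 1971, 978 to 986, 1058 to 1064 and 655 to 660 in the 4 lists, given in the order HSPA1A replicates 1 and 2, HSPA8 replicates 1 and 2. Their 3′ peaks scored 1176 to 1188, 1351 to 1358, 516 to 520 and 770 to 781. The widest of these ranges was 1.42% of its median. Their peak bounds differed by no more than 1 base within a list. Near-identical copies can share reads, and how reads that match several places were treated is not given in the sources used here. The 5 genes are therefore not separate observations, and their signal is uncertain between copies.

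RNVU1-7 differed from the other genes most at its 3′ end. Its 5′ peak scored 1959, 985, 1047 and 660, between 98.9% and 100.2% of the median of the other 5 genes. This was the lowest of the 6 genes in both lists numbered 1 and within the range of the others in both lists numbered 2. Its 3′ peak scored 945, 1263, 350 and 730, which was 79.9%, 93.3%, 67.3% and 94.1% of that median. The 3′ peak of RNVU1-7 was thus the lowest of the 6 genes in all 4 lists, by more than the range among the other copies. It was also shorter. It ended at 148 against 151 in HSPA1A replicate 1, at 144 against 147 in both lists numbered 2, and at 149 against 164 in HSPA8 replicate 1. Of its 164 bases, 18 lay under a peak in 0 of the 4 lists, against 2 in RNU1-1 and 3 in each of the other 4. This contrast rested mainly on HSPA8 replicate 1, the only list where peaks of the other genes reached base 164. In the standard copies and RNVU1-18, 134 bases were covered in all 4 lists, and 132 in RNVU1-7.

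The baits were then compared in how much of U1 their peaks covered. Summed over the 6 genes, the peaks covered 865 and 802 bases with HSPA1A and 951 and 823 bases with HSPA8. The sum counts near-identical copies separately. On RNU1-4 alone the peaks covered 145 and 134 bases with HSPA1A and 161 and 138 bases with HSPA8. The values of the baits overlapped. Over the 6 genes, HSPA1A had a mean sum of 834 ± 44.5 bases (SD, n = 2) and HSPA8 a mean sum of 887 ± 90.5 bases (SD, n = 2). The difference of -53.5 bases, HSPA1A minus HSPA8, was smaller than the spread between replicates of HSPA8 (exact two-sided permutation test over 6 orders of the bait labels, p = 0.667). This test cannot give a p below 0.333 with 2 lists per bait. Without HSPA8 replicate 1 the difference turned to 10.5 bases. Peak number and number of genes did not vary at all, at 12 peaks and 6 genes per list.

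The share of the covered bases that lay in the first 82 positions was 52.7% and 56.1% with HSPA1A, and 49.9% and 54.7% with HSPA8. HSPA1A had a mean share of 54.4% ± 2.40 (SD, n = 2) and HSPA8 a mean share of 52.3% ± 3.35 (SD, n = 2). The difference of 2.10 percentage points lay within the spread between replicates (exact two-sided permutation test, p = 0.667). It turned to -0.265 without HSPA8 replicate 1. Both lists numbered 2 had a larger share in the first 82 positions than the list numbered 1 of the same bait, since their 3′ peaks were shorter.

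The higher-scoring U1 peak of each gene stood near the top of each list by score. In the lists numbered 1 the 3′ peaks ranked lower. They scored above 94.2% to 95.2% of the peaks with HSPA1A and above 86.7% to 89.1% with HSPA8. The best U1 peak scored 1971, 1358, 1064 and 781 in the 4 lists. It scored above 98.5%, 99.5%, 91.4% and 99.4% of the peaks of its list, with 39, 8, 267 and 11 peaks above it. Of the 267 peaks above it in HSPA8 replicate 1, 126 lay on scaffolds outside the chromosomes, where no gene was assigned, and 112 on genes annotated as rRNA. On the chromosomes named in all 4 lists the best U1 peak scored above 98.5%, 99.5%, 94.9% and 99.4% of the peaks, so HSPA8 replicate 1 was still the lowest. In HSPA1A replicate 1, 32 of the 39 lay on rRNA genes. Percentiles of lists that differ in length do not measure a change between baits. No control bait stands beside them, so they do not separate crosslinking to the bait from the abundance of U1 RNA, which is high in human cells.

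The same pair of peaks was sought elsewhere in the lists, a search added after the data were seen. It asked for a 5′ and a 3′ peak on the same strand at most 10 bases apart, each within 5% of the median score and 5 bases of the median width of the U1 genes. There were 8 such loci in each HSPA1A list and 9 in each HSPA8 list. The member genes other than RNVU1-7 made up 5 of them. In all 4 lists the others were the annotated pseudogenes RNU1-27P and RNU1-28P on chromosome 14 and LOC124904613, a gene of 164 bases annotated as snRNA on chromosome 1 from 146376807 to 146376970. The ninth locus was found in the HSPA8 lists alone and lay on the scaffold KI270713.1, on the minus strand, from 21861 to 22021 in replicate 1 and from 21878 to 22017 in replicate 2. The HSPA1A lists name 0 peaks on any scaffold, so this locus cannot be compared between baits. The annotated pseudogenes scored 1955 and 1956 at the 5′ peak in HSPA1A replicate 1, and 654 and 657 in HSPA8 replicate 2, next to 1964 to 1971 and 655 to 660 for the standard copies and RNVU1-18.

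By the rule for likeness, the mean absolute difference in the percentile of the best peak over the 4 lists, LOC112268274 and LOC124904613 were nearest to the median of the U1 genes, both at 0.0937 percentage points. LOC112268274 is a long non-coding RNA gene that overlaps LOC124904613, and the best peak was the same. Next came LOC105370449, a long non-coding RNA gene whose best peaks lay on RNU1-27P or RNU1-28P, at 0.185. Then came IGF2R, which encodes the receptor for insulin-like growth factor 2, at 0.524, and LINGO1, tied with LOC105370906 at 1.19. Whether the peaks at these genes resemble U1 in sequence was not examined. The best peak inside the span of IGF2R lay on the minus strand in all 4 lists. Strand was ignored in assigning genes, so whether this peak lies on IGF2R RNA was not tested. The peak scored 1824 and 4424 with HSPA1A and 991 and 2133 with HSPA8. It was thus higher than the best U1 peak in both lists numbered 2 and lower in both lists numbered 1.

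The other genes with a U1 symbol number 138, of which 15 are annotated as snRNA and 123 as pseudogenes. Of the 15, 11 and 10 carried a peak with HSPA1A and 9 and 10 with HSPA8. The 9 found in all 4 lists were RNVU1-1, RNVU1-2A, RNVU1-14, RNVU1-15, RNVU1-17, RNVU1-19, RNVU1-27, RNVU1-28 and RNVU1-31. RNVU1-8 had a peak in 3 lists and RNVU1-6 in 1. RNVU1-3, RNVU1-4, RNVU1-26 and RNVU1-30 had a peak in 0 lists. Of the 123 pseudogenes, 51 and 42 carried a peak with HSPA1A and 33 and 39 with HSPA8, with 29 in all 4 lists, 43 in at least 2 and 69 in 0.

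The 9 variants with a peak in all 4 lists differed in which side of position 104 scored higher. The side beyond it scored higher in 6 of them in both HSPA1A lists, in 4 in HSPA8 replicate 1 and in 6 in HSPA8 replicate 2. The side before it scored higher in 3, 2, 5 and 2, with a tie in RNVU1-27 in both lists numbered 2. The 3 variants with the highest scores, chosen after their values were seen, were higher beyond position 104 in all lists. RNVU1-28 scored 1100, 1304, 464 and 731 beyond position 104 in the 4 lists, between 89.2% and 96.3% of the median of the 5 like copies. Before that position its best peak scored 588, 250, 276 and 153, between 23.2% and 29.9% of theirs. RNVU1-1 had 871, 1203, 282 and 678 beyond position 104, and at most 7.13% of the 5′ score of the copies before it. RNVU1-19 had 687, 1089, 234 and 572, and at most 1.52%. RNVU1-17 was also higher beyond position 104 in all lists, with 185, 113, 101 and 65 there. RNVU1-14 and RNVU1-15 went the other way. RNVU1-14 had all its peaks before position 104, with best scores of 165, 67, 78 and 41. RNVU1-15 scored 41, 38, 12 and 25 before it, against 5 and 12 beyond it with HSPA1A and no peak there with HSPA8. RNVU1-7, among the 6 genes, was nearer to the copies at its 5′ peak than at its 3′ peak. In RNVU1-28, RNVU1-1 and RNVU1-19 the 3′ score stood higher over the 5′ score in the replicate numbered 2 of a bait than in the replicate numbered 1. For RNVU1-28 the ratio was 1.87 and 5.22 with HSPA1A and 1.68 and 4.78 with HSPA8. The ratio was also larger in the replicate numbered 2 in RNVU1-31, RNVU1-2A and RNVU1-27 with each bait, and in RNVU1-15 with HSPA1A. RNVU1-17 went the other way with HSPA1A, at 20.6 in replicate 1 and 11.3 in replicate 2, with scores of 9 and 10 before position 104. RNVU1-14, and RNVU1-15 and RNVU1-17 with HSPA8, had peaks on a single side and gave no ratio.

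**Figure D3:**
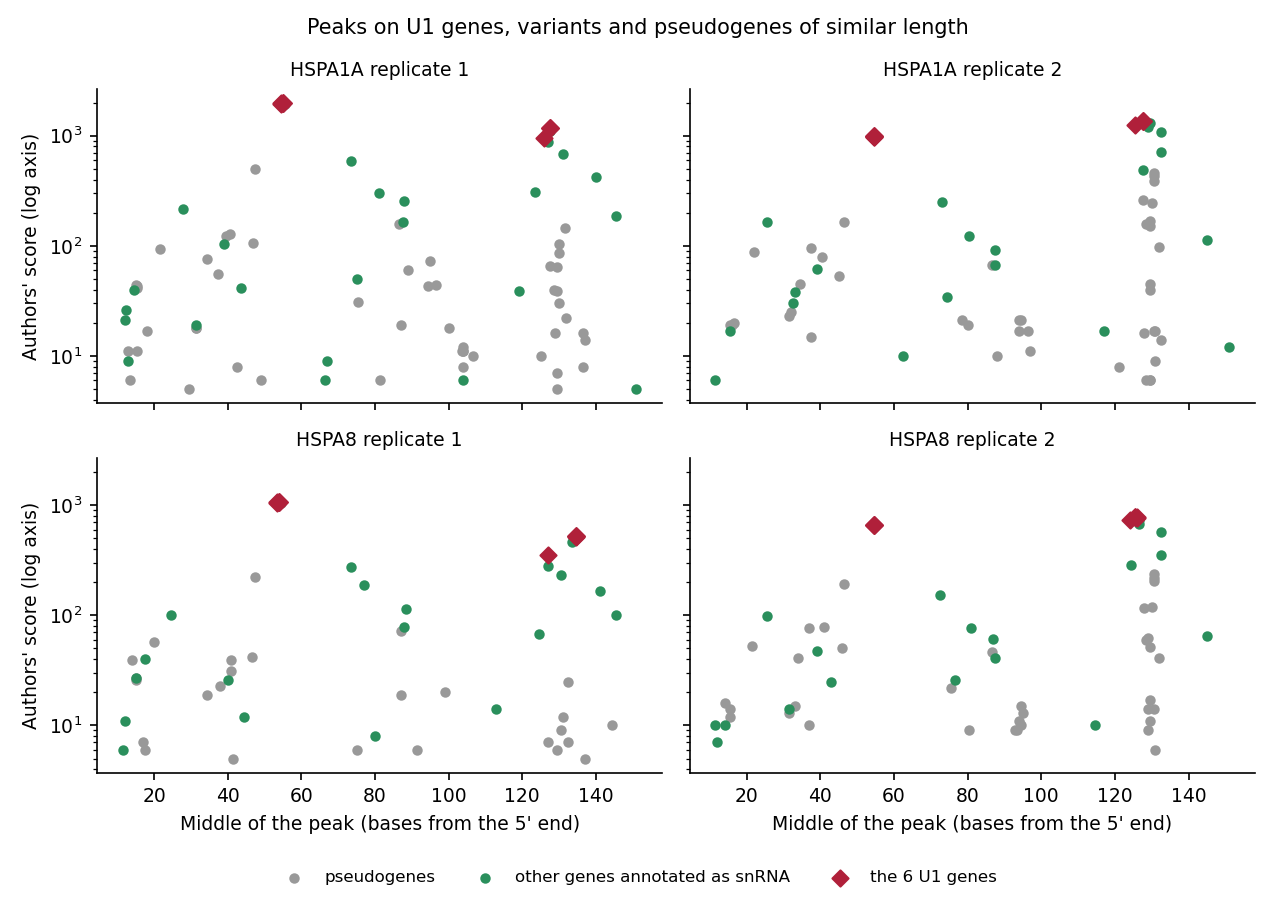
The authors' score on a log axis against the middle of each peak in bases from the 5′ end, 1 panel per list, for the 6 U1 genes (red diamonds), other U1-symbol genes annotated as snRNA (green) and pseudogenes (grey) within 5 bases of 164 in length. RNU1-27P and RNU1-28P lie behind the diamonds. In the lists numbered 2, the highest grey points near position 130 lie above all visible grey points before position 104.

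The other spliceosomal snRNA genes were set beside U1. The list holds 18 genes for U2, U4, U5 and U6 and for the minor spliceosome, which removes a rare class of introns. Of them 17 and 18 carried a peak with HSPA1A and 16 and 17 with HSPA8, and 7, 9, 5 and 6 carried 2 or more. The median of the 6 U1 genes for the best peak was 98.4%, 99.4%, 91.3% and 99.2% of the list scoring lower. The median of the 18 other genes was 84.0%, 79.7%, 75.3% and 66.9%. Their highest was 96.5%, 98.0%, 90.0% and 98.3%. By the best peak of each gene, 0 of the 18 genes scored above the lowest of the 6 U1 genes in each list. The U1 copies that could not be told apart are not separate observations. RNU6-1 and RNU6-2, among the 18, also had equal best scores in each list. These numbers of genes are therefore not numbers of separate signals. The difference between the medians was 14.4, 19.7, 16.0 and 32.3 percentage points, with a mean of 20.6. With peaks scoring under the median of their list left out, the mean was 40.3. Percentiles were then taken over the upper part of each list, which stretches the scale, so 40.3 does not show a larger lead. An exact sign-flip permutation over 4 lists cannot give a p below 0.125, so U1 is not called different on this measure.

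RNU2-1, a gene for U2, which pairs with the branch point, came nearest. Its best peak scored 1472 and 852 with HSPA1A and 728 and 609 with HSPA8. In the lists numbered 1 this was above every U1 3′ peak, which scored at most 1188 with HSPA1A and 520 with HSPA8. In the lists numbered 2 it was below every U1 3′ peak. Peaks covered 66.0% of RNU2-1 in HSPA1A replicate 1 and 92.0% in HSPA8 replicate 1, but 15.4% and 16.5% in the lists numbered 2. U1 kept between 80.5% and 98.8% of its bases under peaks in all lists. The RNU4-1 and RNU4-2 genes for U4, the partner that holds U6 inactive until activation, had wide coverage and low scores. Peaks covered 97.9% of RNU4-1 in HSPA1A replicate 1, at a best score of 35. Wide coverage was thus not particular to U1. RNU6-1, a gene for U6 of the catalytic core, scored 183 and 62 with HSPA1A and 115 and 51 with HSPA8. RNU11 of the minor spliceosome, whose RNA takes the place of U1 there, scored 95 and 366 with HSPA1A and 34 and 88 with HSPA8, above 80.6%, 97.0%, 68.2% and 78.6% of the peaks of its list. RNU6ATAC had a peak in HSPA1A replicate 2 alone.

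**Figure D4:**
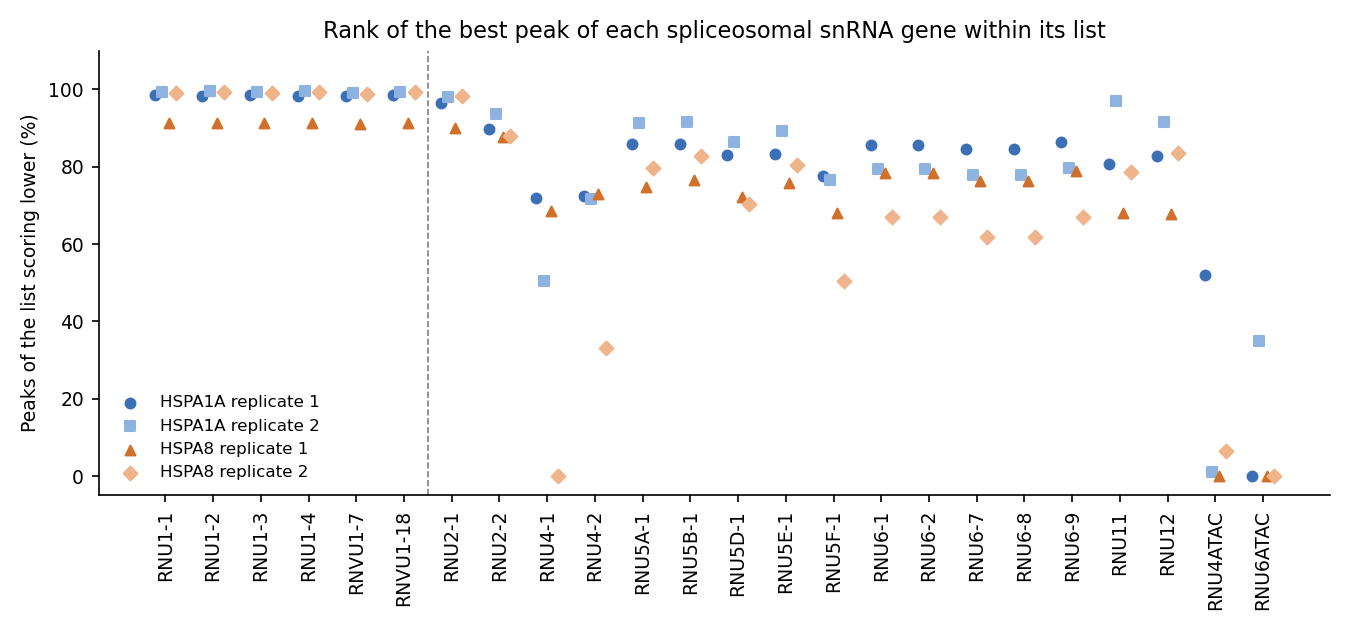
Share of the peaks of the list, in percent, that score lower than the best peak of each spliceosomal snRNA gene, with 1 marker per list and 0 for a gene without a peak. The 6 U1 genes, left of the dashed line, lie between 91.1% and 99.5%, and in each list 0 of the other 18 genes lie above them.

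The messenger RNAs of the proteins that package U1 were looked at as well. The list held 13 genes: SNRNP70, SNRPA and SNRPC for the U1-specific proteins, SNRPB, SNRPD1, SNRPD2, SNRPD3, SNRPE, SNRPF and SNRPG for the Sm ring, and GEMIN5, SMN1 and PHAX for assembly and export. Of these, 1 gene carried a peak in HSPA1A replicate 1 and 0 in each of the other 3 lists, beside 3.04%, 2.00%, 3.05% and 1.28% of all genes. With 13 genes, counts of 1 and 0 are near that background. The peak was 43 bases wide with a score of 5 in SNRPB, and it overlapped the snoRNA gene SNORD119. The other 12 genes had a peak in 0 of the 4 lists.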

How the data were processed

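The deposited files are 4 peak lists in BED form, 1 per replicate of HSPA1A and HSPA8, 1 line per peak with its place, its strand and a score, a whole number set by the authors in an unstated unit. The submitters' processing notes name Trim Galore 0.4.4, FastQC, STAR 2.6.0b, deepTools and the build GRCh38. The peak caller, its threshold and the handling of multiply matching reads are not given in the sources used here. Per the labels' protocols, random tags merged PCR duplicates. Read depth is unknown, so no counting interval was given.

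Peaks were assigned to RefSeq GRCh38.p14 genes by an overlap of at least 1 base, strand ignored because the table gives none. The 59716 genes of 59792 that lie on the 25 chromosomes were used. Percentiles are the share of peaks of a list with a lower score. Baits were compared by exact permutation. Sequences were not used here. Placement was checked on simulated data, where 200 of 200 peaks were recovered.

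The members and gene lists were chosen with earlier results of these data known. Named are the 6 genes, the other snRNA genes, variants with a peak in at least 2 lists, snRNP protein genes with a peak and the 5 genes of nearest percentile; of the 43 pseudogenes that meet this, the counts and RNU1-27P and RNU1-28P are given. RNVU1 genes under 2 lists, and the search for like pairs, were chosen after values were seen. Alternatives were a stricter score, equal list lengths, a larger overlap, extended genes, merged peaks, shared chromosomes, each replicate left out and a replicate block. In a further alternative, genes with identical peak offsets were counted once. It left 5 of the 6 genes, so most of the near-identical copies stayed in. Scripts ran on Python 3.11.15 with pandas 2.3.3 and numpy 2.4.6; matplotlib 3.10.9 drew the figures. P-values are the share of label orders, or of sign patterns, that give a difference at least as large, with 2 replicates per bait.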

Additional observations from a re-analysis of the deposited data

How the results depend on the processing

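Other settings gave 55 values. Of these 22 were differences of 0, which have no direction, 31 kept direction and 2 reversed, both on leaving out HSPA8 replicate 1. Part of the 31 could not change. A stricter score, equal list lengths, a larger overlap and extended genes touched no U1 peak. They left the bases covered and the share of the first 82 positions as they were. The replicate block keeps the same difference by its construction. With a replicate left out in turn, the difference in bases covered ranged from -117.5 to 10.5, and the difference in the share of the first 82 positions from -0.265 to 4.47 percentage points. The difference between U1 and the other snRNAs ranged from 16.7 to 22.7. The values of 0 were those of peak number and gene number. None of these tests can pass the threshold, so unchanged calls say nothing about stability. The alternative of ignoring strand was the main setting and was not run again. The labels do not pair the replicates. Over the best-peak percentiles of 521 genes, the deviations from the bait mean in lists of the same number had a correlation of 0.644, which are not independent. With the replicate block the differences were -53.5 bases and 2.10 percentage points (exact sign-flip permutation, p = 0.5 for each, the smallest possible). Unknown depth limits every comparison.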

Other observations

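Among 83 variants and pseudogenes within 5 bases of the length of U1, RNU1-27P and RNU1-28P left out, peaks were placed by the same count of bases, without aligning sequences. Peaks whose middle lay beyond position 104 had a median score of 39 against 31 before it in HSPA1A replicate 1, and of 105.5 against 25 in replicate 2. With HSPA8 the medians were 14 against 26.5 in replicate 1 and 63.5 against 16 in replicate 2. By these medians the 3′ side stood higher over the 5′ side in the replicate numbered 2 of each bait than in the replicate numbered 1. Among loci with peaks on both sides, the 3′ side was the higher in 9 of 15 and 9 of 16 with HSPA1A, and in 3 of 10 and 8 of 12 with HSPA8, so this count gave no such difference with HSPA1A. These loci can share reads with the U1 genes, so they are not separate evidence. The limits of length and position were chosen after the data were seen.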
